A study of Mus musculus with 6 samples.

Results

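Hemidesmosome components are described here as 8 genes chosen by name, Itga6, Itgb4, Plec, Dst, Col17a1, Cd151, Lama3 and Lamb3, each of which matched 1 of the 55076 rows in the table of every mouse. RNA-seq covered the entire anterior prostate (AP) lobe from 3 OEx and 3 Ctrl animals, all males 20 weeks old, with 1 library per mouse. OEx mice were Pbsn-Cre Rosa26 N1ICD/+, in which Cre driven by the probasin promoter switches on the Notch1 intracellular domain (N1ICD) in prostatic epithelium. Ctrl mice are given as wild type in the labels, whereas the study's methods describe them as Rosa26 N1ICD/+ without Cre, which would make the silent N1ICD allele common to both groups. The labels name the cell type as anterior prostatic cells, but the RNA came from tissue with its stroma and vessels. The labels list the mice as separate samples and say nothing of litters, and p-values measure the spread between these samples.

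A hemidesmosome is the junction that fixes the base of an epithelial cell to the basement membrane. Its core is the integrin of the alpha 6 and beta 4 chains (Itga6 and Itgb4), which crosses the basal membrane and binds a basement membrane laminin that contains the alpha 3 and beta 3 chains (Lama3 and Lamb3). Inside the cell the plakins plectin (Plec) and dystonin (Dst) tie the integrin to keratin filaments, which in basal cells are made of Krt5 and Krt14. Collagen XVII (Col17a1), a collagen that spans the membrane, and the tetraspanin Cd151, which holds laminin-binding integrins in clusters, complete the complex. In the prostate these junctions are a feature of basal cells, whereas several of the genes are also used in other cells: plectin and dystonin in muscle, Itga6 in endothelium.

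On GRCm38 (GENCODE vM21), Dst lies at chr1:33908225-34308661 (+), Lamb3 at chr1:193207699-193343878 (+), Itga6 at chr2:71745616-71858416 (+), Cd151 at chr7:141467392-141471473 (+), Itgb4 at chr11:115974709-116008412 (+), Plec at chr15:76170974-76232574 (-), Lama3 at chr18:12333819-12583013 (+) and Col17a1 at chr19:47646344-47692094 (-). FPKM (fragments per kilobase of exon, scaled to sequencing depth) was deposited per gene, so the 2 to 22 annotated transcripts of each gene, such as the epithelial, neural and muscle forms of Dst, were not separated. Exons of Dst, Cd151, Itgb4, Plec and Lama3 overlap those of other genes, over 1.13 to 7.66% of their exon length, and those values include any shared reads that the authors' counting assigned to them.

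Recovered depth was 14772007 to 17009324 reads in OEx and 17236734 to 18655462 in Ctrl mice. Notch1, used as the check of the genotype labels, read 41.9, 47.6 and 78.9 FPKM in OEx mice and 5.18, 5.55 and 3.34 in Ctrl mice. Mouse 3 stood apart from mice 1 and 2 in both groups: a chi-square of reads per degree of freedom was 2.84 to 3.47 between mice 1 and 2 and 45.5 to 79.1 against mouse 3. Genes of the seminal vesicle, a neighboring gland, took 1.31% of the reads of Ctrl mouse 3 and at most 0.000325% of those of any other mouse, and smooth muscle markers were also highest there. OEx mouse 3 had lower fibroblast markers (summed FPKM of 21.5 against 166 and 168) and lower immune markers (4.36 against 19.1 and 18.3) than OEx mice 1 and 2. The number of reads by which the deposited FPKM were divided was 18051164 to 22868178 in OEx and 12510314 to 15195713 in Ctrl mice, the larger numbers in the group of lower depth, so the values carried a scaling between mice.

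Of the 8 components, Col17a1, Lama3, Lamb3 and Cd151 were called lower in OEx mice and 0 were called higher, where 15.7% of all 12833 tested genes were called lower and 12.9% higher. Calls required an adjusted p (FDR, Benjamini-Hochberg) under 0.05 in limma together with a change above 1 on the log2(FPKM + 1) scale. By the adjusted p alone 5 components, these and Plec, were lower and 0 were higher, against 36.5% and 30.7% of tested genes. Itga6, Itgb4 and Dst did not pass. Values of OEx and Ctrl mice did not overlap for 5 components, all lower in OEx, compared with 38.9% of tested genes, and overlapped for 3. The median change over the 8 was -0.92, and over all tested genes -0.08. All 8 components entered the test. Col17a1, Lama3 and Lamb3 averaged under 1 FPKM in OEx mice and passed its filter, a mean of 1 FPKM over all mice, through their level in Ctrl mice.

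**Figure D1:**
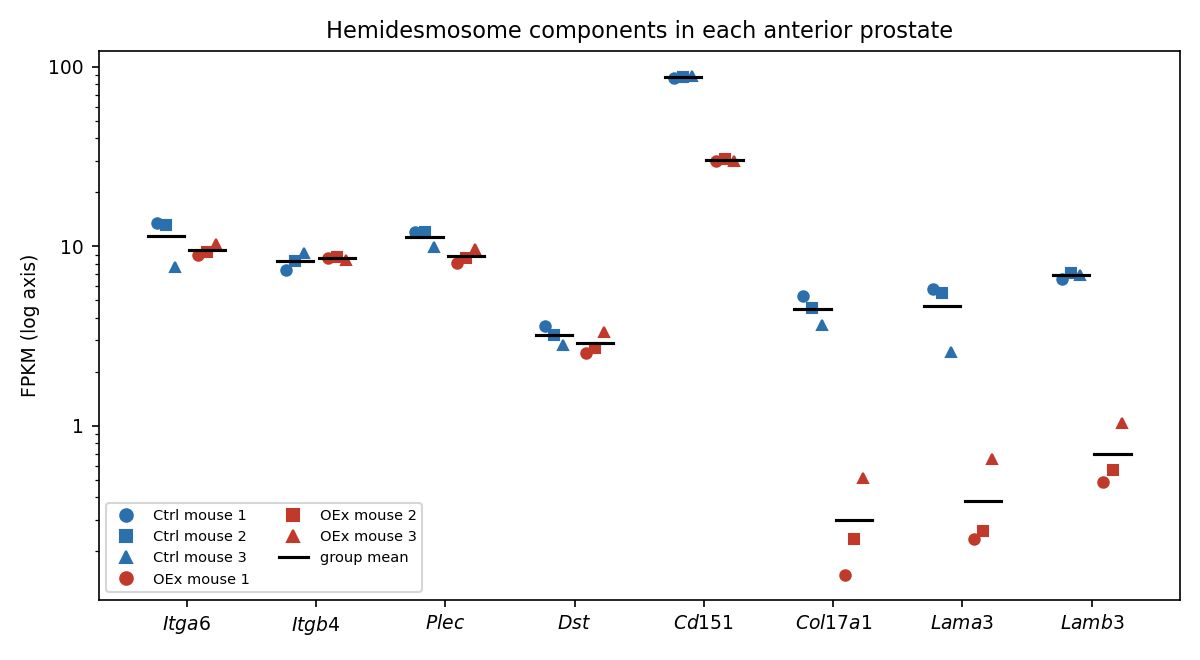
FPKM of each hemidesmosome component (log axis) in each of 3 Ctrl (blue) and 3 OEx (red) mice, with the group mean as a black line. Cd151, Col17a1, Lama3 and Lamb3 sit lower in every OEx mouse than in any Ctrl mouse, while Itga6, Itgb4 and Dst overlap.

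In Ctrl mice the order of mean FPKM, a level per length, was Cd151, Itga6, Plec, Itgb4, Lamb3, Lama3, Col17a1 and Dst. Neighbors in this order had separate ranges except Itga6 and Plec, and Lama3 and Col17a1. In OEx mice the first 4 kept these places, with the range of Plec overlapping that of Itga6 and that of Itgb4. Dst now came before Lamb3, Lama3 and Col17a1, among which neighbors overlapped.

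The integrin pair showed no called difference. Itgb4, whose long cytoplasmic tail is the docking site for the plakins, read 8.65, 8.77 and 8.43 FPKM in OEx mice and 7.42, 8.28 and 9.21 in Ctrl mice. All 3 OEx values fell inside the range of the Ctrl mice. Its mean was 8.62 ± 0.171 against 8.30 ± 0.897 FPKM (SD, n = 3), and the change of 0.05 on the log2(FPKM + 1) scale had a 95% interval from -0.18 to 0.28 (limma FDR = 0.650). Itga6, the partner chain, read 8.98, 9.32 and 10.4 FPKM in OEx mice and 13.5, 13.1 and 7.70 in Ctrl mice. Ctrl mice 1 and 2 lay above every OEx mouse and Ctrl mouse 3 below, and the change was -0.20 (95% interval -0.69 to 0.29, limma FDR = 0.411). Without Ctrl mouse 3, which carried seminal vesicle RNA, Itga6 was lower in OEx by 0.44 (change -0.44, limma FDR = 0.00579), short of the fold criterion. The ratio of Itga6 to Itgb4 within a mouse, which the scaling between mice cannot alter, ran from 1.04 to 1.23 in OEx mice and from 0.836 to 1.82 in Ctrl mice.

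Neither plakin that links the integrin to keratin was called. Plec read 8.07, 8.65 and 9.66 FPKM in OEx mice and 12.0, 12.1 and 9.85 in Ctrl mice. The groups did not overlap, but OEx mouse 3 and Ctrl mouse 3 lay close to each other. Plec was lower by the adjusted p alone (change -0.33, SE 0.11, limma FDR = 0.0374), and its limma FDR was 0.0585 without the filter on low values. It passed without OEx mouse 3 (limma FDR = 0.0290) or Ctrl mouse 3 (limma FDR = 0.00995). It missed without any of the other mice (limma FDR from 0.102 to 0.126). When mice were scaled by library totals, Plec was instead higher by the adjusted p alone (change 0.49, limma FDR = 0.0170). Dst, whose epithelial form is the antigen BP230 of pemphigoid disease, read 2.55, 2.72 and 3.35 FPKM in OEx mice and 3.58, 3.21 and 2.81 in Ctrl mice. The ranges overlapped, with a change of -0.12 (95% interval -0.42 to 0.18, limma FDR = 0.427).

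Cd151 had the highest level of the components and the smallest SE of its change. It read 29.8, 30.8 and 29.8 FPKM in OEx mice and 87.0, 87.9 and 89.3 in Ctrl mice, from 1472 to 1931 and from 2982 to 3718 reads. The groups were far apart, with means of 30.1 ± 0.609 and 88.0 ± 1.16 FPKM (SD, n = 3), so that OEx mice held 34.2% of the Ctrl level. The change was -1.52 on the log2(FPKM + 1) scale (SE 0.07, limma FDR = 2.59e-05), -0.63 when mice were scaled by library totals and -0.87 by totals without the 20 most abundant genes. Both of these passed the adjusted p and missed the fold criterion.

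Collagen XVII and the laminin chains fell furthest. Col17a1 read 0.148, 0.235 and 0.509 FPKM in OEx mice, from 17, 31 and 53 reads, and 5.30, 4.56 and 3.63 FPKM in Ctrl mice, from 382, 340 and 318 reads. The highest OEx mouse, mouse 3, was far below the lowest Ctrl mouse, also mouse 3. The mean was 15.1-fold higher in Ctrl, and the change was -2.08 (SE 0.17, limma FDR = 9.73e-05). Lamb3 read 0.485, 0.569 and 1.03 FPKM in OEx mice and 6.61, 7.11 and 6.93 in Ctrl mice. The Ctrl mice agreed closely, OEx mouse 3 was the highest of its group, and the change was -2.23 (SE 0.14, limma FDR = 4.56e-05), with a mean 9.91-fold higher in Ctrl. Lama3 read 0.233, 0.260 and 0.650 FPKM in OEx mice and 5.80, 5.51 and 2.56 in Ctrl mice. Ctrl mouse 3 held a lower level than the other Ctrl mice but lay above all OEx mice, and the change was -1.98 (SE 0.28, limma FDR = 0.000848).

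These changes are understated by the pseudocount of 1 FPKM, since the OEx levels lay near or below it. With a pseudocount of 0.1 FPKM the changes were -3.62 for Col17a1, -3.31 for Lama3 and -3.20 for Lamb3. On recovered reads limma-voom, with the scaling of the deposited FPKM kept, gave -4.08, -3.69 and -3.40. The counts of 17 to 126 reads for the 3 genes in OEx mice make the order among these mice less certain than the difference between groups.

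Upstream sequences of the called components are shown because N1ICD acts on genes through the DNA-binding protein RBPJ, whose core motif is TGGGAA. RefSeq promoters (GRCm38.p6) were matched for 4 of the 8 genes, Dst, Lamb3, Cd151 and Col17a1, and not for Itga6, Itgb4, Plec and Lama3. In the 250 bases before the 7 annotated starts of these genes, TGGGAA was present on either strand in 5 windows. Over all genes it was in 21.6% of the 32851 windows of that length. This share is per window, and Dst, Lamb3 and Cd151 each had more than 1 start. Each of the 4 genes had at least 1 window with a match, including Dst, which was not called. The AP-1 motif TGANTCA, searched on both strands, was in 0 of the 7 windows and in 6.75% of all. The run before the only Col17a1 start (chr19:47692095-47692292, - strand), the run before the first Lamb3 start (chr1:193301744-193301992, + strand) and the run before the first Cd151 start (chr7:141467112-141467361, + strand, within an exon of the antisense RNA gene Gm10575) are printed 5′ to 3′ on the strand of the gene, up to the first exonic base, with matches to TGGGAA or its reverse complement in capitals.
Col17a1: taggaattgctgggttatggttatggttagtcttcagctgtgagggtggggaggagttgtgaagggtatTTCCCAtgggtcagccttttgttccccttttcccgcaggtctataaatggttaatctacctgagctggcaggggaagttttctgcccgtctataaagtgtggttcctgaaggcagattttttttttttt
Lamb3: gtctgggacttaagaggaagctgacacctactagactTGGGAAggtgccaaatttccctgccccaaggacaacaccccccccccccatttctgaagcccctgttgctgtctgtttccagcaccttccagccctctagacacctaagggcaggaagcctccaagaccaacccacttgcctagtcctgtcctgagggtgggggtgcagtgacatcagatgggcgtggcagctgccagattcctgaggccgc
Cd151: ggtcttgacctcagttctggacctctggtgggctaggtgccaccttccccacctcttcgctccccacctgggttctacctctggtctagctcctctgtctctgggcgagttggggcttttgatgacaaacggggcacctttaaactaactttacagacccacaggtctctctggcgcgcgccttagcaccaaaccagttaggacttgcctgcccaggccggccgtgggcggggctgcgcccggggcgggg
Col17a1 and Lamb3 each hold 1 match and this Cd151 run holds none, while the window before the other Cd151 start holds 1. The match is a description of the letters, and no binding was measured in these libraries.

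The chains Lama3 and Lamb3 were also set against each other within a mouse, where the scaling between mice has no part. The ratio of Lama3 to Lamb3 overlapped between groups, with 0.458 to 0.630 in OEx mice and 0.370 to 0.877 in Ctrl mice, the lowest value being that of Ctrl mouse 3.

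Because the direction of small changes depended on how mice were scaled, components were also compared within a mouse, with Itgb4 as the reference. Relative to Itgb4, Col17a1 was 17.8-fold lower in OEx mice, Lama3 13.3-fold lower, Lamb3 10.9-fold lower and Cd151 3.05-fold lower, as geometric means, with no overlap between groups. For each the exact two-sided permutation test gave p = 0.1, its lower limit with 3 mice per group (0.1625 adjusted over the 13 ratios computed, which were chosen after the values were seen). The ratios of Dst, Itga6 and Plec to Itgb4 overlapped between groups. Scaling by library totals moved the median of all tested genes from -0.08 to 0.65, and the changes of Dst, Itga6, Itgb4 and Plec were then 0.56, 0.62, 0.86 and 0.49, while those of Col17a1, Lama3 and Lamb3 stayed below -1. Set against the median over all tested genes, the change of Itgb4 was 0.13 as deposited and 0.21 by library totals, and that of Plec -0.25 and -0.16. These pairs differ because the pseudocount of 1 FPKM was added after scaling.

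**Figure D2:**
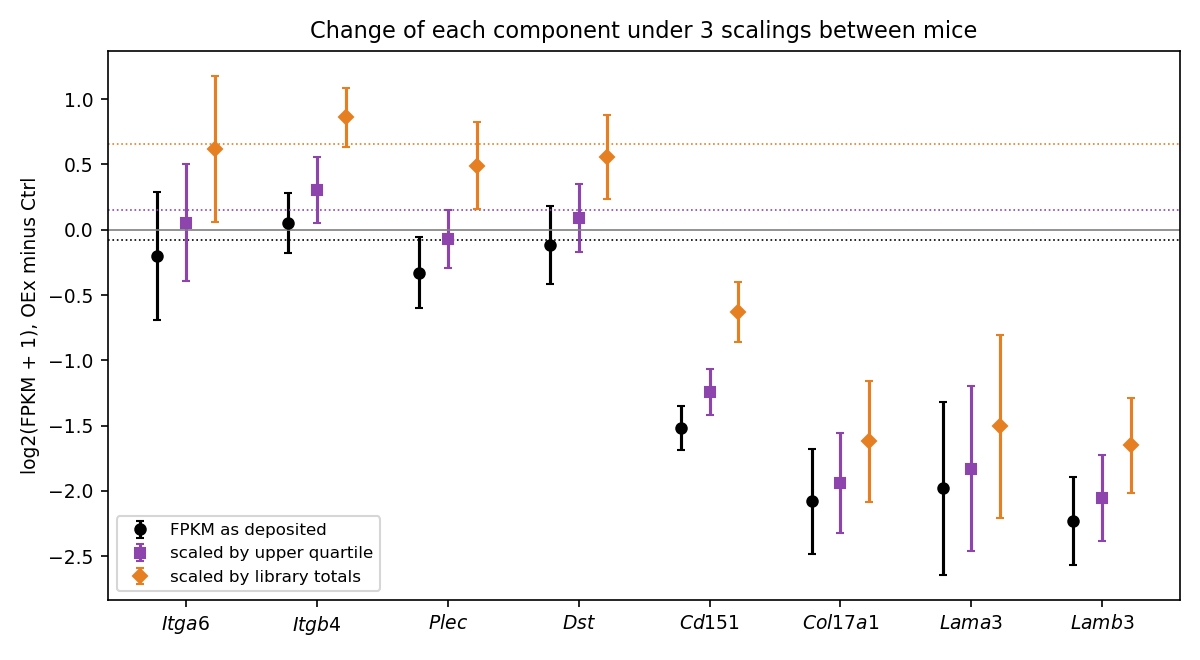
Change of each component in log2(FPKM + 1), OEx minus Ctrl, with the 95% interval from limma, for FPKM as deposited (black), scaled by upper quartile (purple) and scaled by library totals (orange). Dotted lines mark the median change of all tested genes under each scaling (-0.08, 0.15 and 0.65), and Col17a1, Lama3, Lamb3 and Cd151 lie below all of them.

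Markers of basal epithelium moved with these genes. All 5 basal markers (Krt5, Krt14, Krt15, Krt17 and Trp63) were called lower, and their summed level was 9.11 to 16.7 FPKM in OEx and 216 to 256 FPKM in Ctrl mice, a 19.7-fold difference of means. None of them was at 0. OEx mouse 3, which had the highest Col17a1, Lama3 and Lamb3 of its group, also had the highest basal sum. Most of that sum was Krt15 (10.6 FPKM), and its Krt17 was the lowest of the OEx mice (0.857 FPKM). Ctrl mouse 3 had the highest basal sum of the Ctrl mice but the lowest Col17a1 and Lama3. Krt5 read 1.32, 1.45 and 2.60 FPKM in OEx mice and 58.2, 58.3 and 55.2 in Ctrl mice. Relative to Krt5 within a mouse, Col17a1 was 1.96-fold, Lama3 2.63-fold and Lamb3 3.20-fold higher in OEx than in Ctrl mice, without overlap (exact permutation p = 0.1 each, 0.1625 adjusted). The direction of such ratios depends on the marker chosen. Means were 32.0-fold higher in Ctrl for Krt5, 21.3-fold for Krt15, 20.9-fold for Krt14, 11.3-fold for Trp63 and 2.79-fold for Krt17. For Col17a1, Lama3 and Lamb3 they were 15.1-fold, 12.1-fold and 9.91-fold. Ratios to basal markers other than Krt5 were not computed. Scaling all mice to the median of the basal markers moved the median of all tested genes to 3.30, with 97.0% of them called higher and 0.257% lower. That marker median was the value of Krt14 in every mouse except Ctrl mouse 3, where it was that of Krt5. Scaling to Trp63 or Krt17, which fell less, was not tried. On that scale none of the 8 components was lower: Col17a1 changed by 0.12 (limma FDR = 0.673), Lama3 by 0.32 (limma FDR = 0.350), Lamb3 by 0.61 (limma FDR = 0.0279) and Cd151 by 2.67 (limma FDR = 1.25e-06). Against the median of all genes on the same scale they were lower, at -3.18 for Col17a1, -2.99 for Lama3, -2.69 for Lamb3 and -0.63 for Cd151. Bulk tissue cannot tell fewer cells of a type from less RNA per cell, and the part of cell composition in these differences was not tested.

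**Figure D3:**
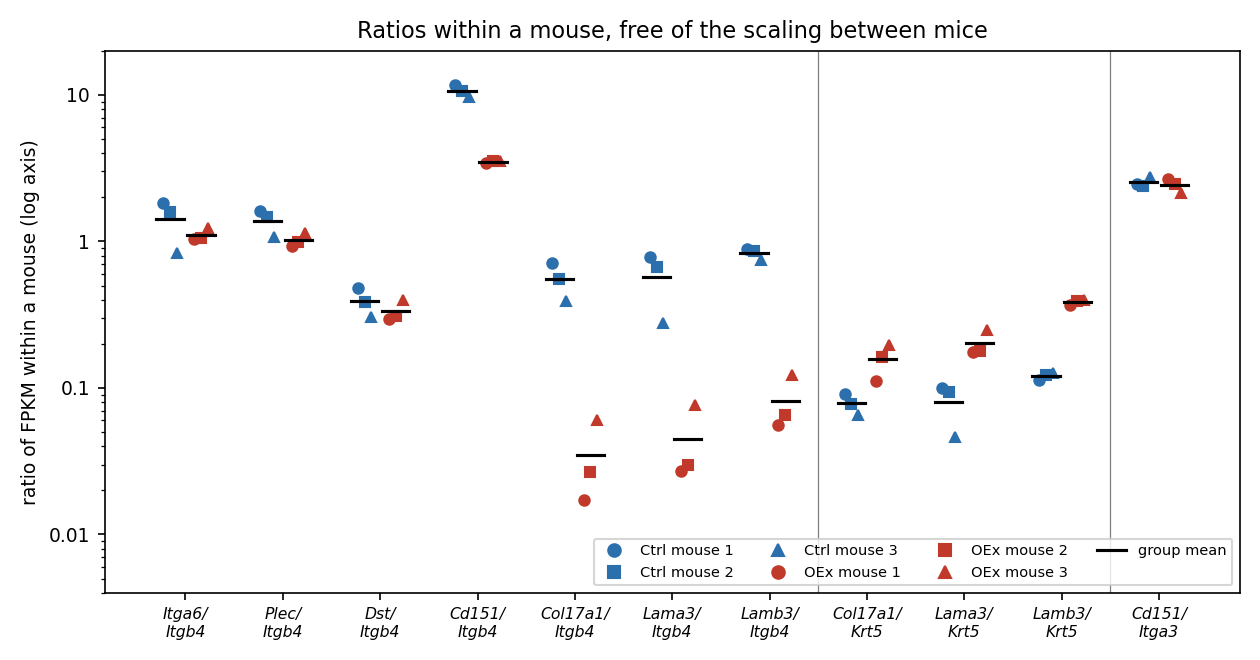
Ratio of FPKM within each of 3 Ctrl (blue) and 3 OEx (red) mice (log axis), with group means as black lines: components over Itgb4 (left), Col17a1, Lama3 and Lamb3 over Krt5 (middle) and Cd151 over Itga3 (right). Ratios to Itgb4 of Cd151, Col17a1, Lama3 and Lamb3 are lower in OEx mice, and the ratios to Krt5 are higher.

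Summed markers of smooth muscle, endothelium, Schwann cells and luminal epithelium were also lower in OEx mice, and those of fibroblasts and immune cells overlapped. All 6 smooth muscle markers were called lower in OEx mice, with sums of 419 to 505 FPKM against 1252 to 2671 in Ctrl mice. Endothelial markers summed to 6.52 to 7.66 FPKM in OEx and 17.5 to 23.1 in Ctrl mice, and 1 of 5 was called lower. Schwann cell markers summed to 5.79 to 6.73 against 11.8 to 16.8 FPKM, with 1 of 2 tested called lower. Of the luminal markers 3 of 4 were called lower (summed 2544 to 5402 against 16215 to 20307 FPKM, mostly Pbsn). Fibroblast sums (21.5 to 168 against 45.2 to 80.0 FPKM) and immune sums (4.36 to 19.1 against 4.35 to 10.2 FPKM) overlapped, with 0 markers called. Seminal vesicle genes were 0.578 to 1.18 FPKM in OEx mice, 4.36 and 2.74 in Ctrl mice 1 and 2 and 16128 in Ctrl mouse 3, with 0 called. The part of these cells in the values of Plec, Dst and Itga6 was not tested.

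Of the 6 partners of the anchoring complex, all tested and including the basal markers Krt5 and Krt14, 1 was called higher and 3 lower, with a median change of -1.05. Over all tested genes 12.9% were called higher and 15.7% lower. Krt5 and Krt14, the basal keratins to which the plakins attach, changed by -4.41 (limma FDR = 1.74e-05) and -3.85 (limma FDR = 2.73e-05). Krt14 read 2.17, 2.29 and 2.30 FPKM in OEx mice and from 38.4 to 62.96 in Ctrl mice. Itga3, a laminin-binding integrin chain that associates with Cd151, read 11.1, 12.5 and 13.8 FPKM in OEx mice and 35.0, 36.9 and 32.4 in Ctrl mice, a change of -1.41 (limma FDR = 7.15e-05). The ratio of Cd151 to Itga3 within a mouse overlapped between groups and ran from 2.15 to 2.68 in OEx mice and from 2.38 to 2.76 in Ctrl mice. Itgb1, the chain that pairs with Itga3, changed by 0.17 (limma FDR = 0.430) and overlapped between groups. Col7a1, the anchoring fibril collagen under the hemidesmosome, was lower by the adjusted p alone (change -0.69, limma FDR = 0.0217). Erbin, a scaffold protein that binds Itgb4 and Dst, rose: it read 30.9, 30.9 and 31.1 FPKM in OEx mice and 7.56, 7.41 and 8.83 in Ctrl mice, a change of 1.84 (SE 0.09, limma FDR = 2.64e-05).

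Of 59 genes in the related lists, 49 were tested, 6 were called higher and 8 lower. Together these counts lay near the shares over all tested genes, 12.9% called higher and 15.7% lower. The same shares stand beside the counts of each list. Among the 4 tested of the 5 other plakins, 3 rose and 0 fell: Evpl by 1.85, Ppl by 1.39 and Dsp by 1.11, with Macf1, which links actin and microtubules, at 0.27 (limma FDR = 0.0924). Dsp ties keratin to desmosomes, and Evpl and Ppl are plakins of the cornified envelope. The plakin list thus had a median of 1.25, whereas Plec and Dst, the hemidesmosome plakins, changed by -0.33 and -0.12. In the desmosome list 8 of 10 genes were tested, 0 were called higher and 1 lower, with a median of 0.15. The extremes were Dsg2 at 0.85 (limma FDR = 0.00142) and Pkp4 at 0.49 (limma FDR = 0.0303), and Pkp1, the plakophilin of stratified and basal epithelium, at -2.15 (limma FDR = 5.96e-05) and Pkp3 at -0.49 (limma FDR = 0.00813).

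The other laminins and basement membrane genes had 13 of 18 tested, with 0 called higher, 2 called lower and a median of 0.14. Col4a6, a type IV collagen chain found under epithelium and around smooth muscle, read 1.10, 1.32 and 8.15 FPKM in OEx mice and 45.7, 47.6 and 25.7 in Ctrl mice, a change of -3.47 (limma FDR = 0.00195). Lamc3 changed by -1.71 (limma FDR = 0.000218). At the other end, Lama5, the alpha chain of the common epithelial laminins, was higher by the adjusted p alone (change 0.83, limma FDR = 0.000536) while Lama3 was lower, and Col4a1 stood at 0.57 (limma FDR = 0.233).

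Among enzymes that shed Col17a1 and signaling partners of the integrin, 11 of 12 were tested, 2 were called higher and 1 lower, with a median of 0.35. Egfr, the epidermal growth factor receptor, rose by 1.45 (limma FDR = 7.30e-05) and Yes1, a Src family kinase, by 1.23 (limma FDR = 0.000133). Met, the hepatocyte growth factor receptor, fell (change -1.32, limma FDR = 0.000132), and the adapter Shc1 was lower by the adjusted p alone (change -0.50, limma FDR = 0.0111). Of the other tetraspanins 7 of 8 were tested, 0 were called higher and 1 lower, with a median of 0.07. Tspan1 read 143, 144 and 137 FPKM in OEx mice and 649, 647 and 561 in Ctrl mice, a change of -2.12 (limma FDR = 2.46e-05), and Cd63 was lower by the adjusted p alone (change -0.66, limma FDR = 0.00156). Tspan8 was higher by the adjusted p alone (change 0.71, limma FDR = 0.0329), and Cd53, a leukocyte tetraspanin, stood at 1.14 (limma FDR = 0.115). Scaling by library totals raised the median of all genes to 0.65. Of the related genes that had passed the adjusted p, 5 then changed sign, among them Shc1, Pkp3 and Cd63. On that scale 23 of the 49 related genes were called higher and 6 lower, where 34.7% of all tested genes were called higher and 3.93% lower.

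**Figure D4:**
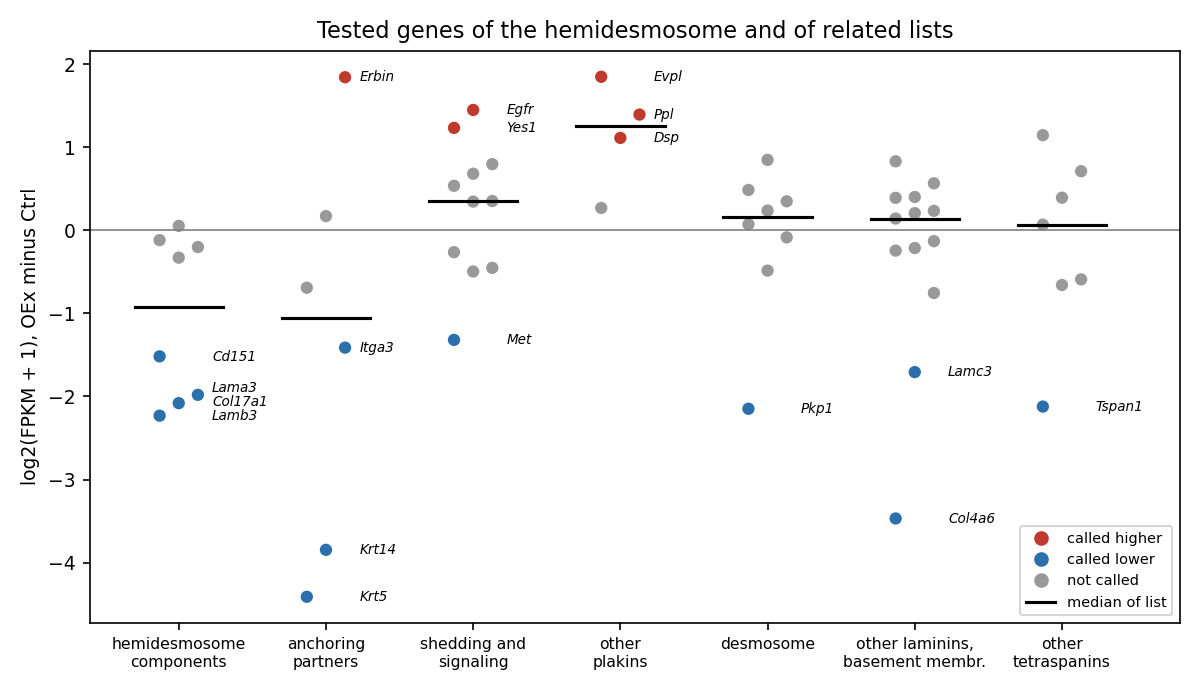
Change in log2(FPKM + 1), OEx minus Ctrl, of each tested gene of the hemidesmosome and of 6 related lists, with called genes in color and named, and list medians as black lines. Of the components 4 are called lower and the other 4 lie between -0.33 and 0.05, and the plakins called higher are Evpl, Ppl and Dsp.

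Among the 80 tested genes of the related and marker lists, the one whose log2(FPKM + 1) followed each component most closely over the 6 mice was Pkp1 for Col17a1 (Pearson r = 0.997), Krt5 for Lamb3 (r = 0.999), Mbp for Lama3 (r = 0.991) and Tspan1 for Cd151 (r = 0.997). For the components that did not pass the fold criterion it was Pkp2 for Itga6 (r = 0.977), Shc1 for Plec (r = 0.981), Prkca for Dst (r = 0.910) and Fyn for Itgb4 (r = 0.853). The first 4 values mostly reflect the gap between the groups, and all 8 are descriptions over mice of 2 groups.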

How the data were processed

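Total RNA of the AP of 3 OEx and 3 Ctrl mice was sequenced with Illumina TruSeq libraries. The values are FPKM as deposited by the authors, in a separate table for each mouse. The submitters' processing notes name CASAVA, HISAT2 2.0.5, featureCounts 1.5.0-p3 and StringTie 1.3.3b, without roles. The genome build and the strand setting of the counting were not given in the sources used here. The deposited FPKM can only be compared between mice under the scaling the authors applied, and other scalings were therefore tried.

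Groups were taken from the labels. The 8 components, the related lists, the markers and the alternatives were chosen with earlier results of these data known. Named genes were all components and anchoring partners, and the 2 highest and 2 lowest changes of each other list. Genes named beside them (the markers) and the ratios were chosen after their values were seen. Some genes of the related and marker lists are not reported here, and were left out of the list counts and sums.

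Groups were compared on log2(FPKM + 1) with limma 3.58.1 in R 4.3.3, with group as the only term and an intensity trend, over the 12833 genes that averaged 1 FPKM or more. P-values were adjusted over all of these (Benjamini-Hochberg). Exact permutation tests were two-sided. Reads were recovered from FPKM with GENCODE vM21 exon lengths, matched for 53710 rows, and 96.9 to 97.5% of values in the range checked came out whole within 0.05 reads. For Col17a1 a length of 5765 bases gave whole reads in all mice, and the annotated 6011 did not. Recovered reads may include duplicates, and they speak to counting error only. Each mouse was counted as 1 sample because the labels list it as one. No pair of mice held equal values, and a chi-square of reads between mice of one group was at least 2.84 per degree of freedom, which sets them against counting noise alone and does not show that mice 1 and 2 are independent. Promoters came from RefSeq (GRCm38.p6). Summaries used Python 3.11.15 with scipy 1.17.1, pandas 2.3.3 and numpy 2.4.6, and figures matplotlib 3.10.9.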

Additional observations from a re-analysis of the deposited data

How the results depend on the processing

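The counts of components and related genes and the change of each component were recomputed with a replicate block, with each mouse left out, and with other pseudocounts, filters, scalings and models. The ratios, marker lists, likeness and promoter matches were not. The 4 components called lower stayed called whichever mouse was left out, with a pseudocount of 0.1 FPKM, with no filter and with no intensity trend. They also stayed called by upper quartile and in limma-voom. The limma-voom fit took as library sizes the read numbers by which the deposited FPKM were divided. It therefore kept the deposited scaling and is no check of it. By library totals, with or without the 20 most abundant genes, 3 stayed called and Cd151 missed the fold criterion. The labels do not say whether the replicate numbers pair the mice. Deviations of same-numbered mice correlated at -0.307 to -0.189, which cannot decide it with 3 mice per group and mouse 3 apart in both. With a replicate block 4 components were called lower and 0 higher, the FDR of Plec was 0.108, and 1611 genes were called higher and 1986 lower. Leaving out 1 mouse moved Itgb4 between -0.017 (without Ctrl mouse 1) and 0.12.

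A filter at a mean of 10 FPKM left 3 components in the test, of which 1 was called lower and 2 were lower by the adjusted p alone (28.3% and 59.0% of all genes left), and 29 related genes, of which 2 were called higher and 5 lower. Scaling by library totals gave Dst 0.56, Itga6 0.62 and Plec 0.49. Then 3 components, Dst, Itgb4 and Plec, were higher by the adjusted p alone (59.1% of all genes), and Itga6 missed (limma FDR = 0.0501). On this scale 23 related genes were called higher (34.7% of all). Totals without the 20 most abundant genes gave Dst 0.37, Itga6 0.40 and Plec 0.27. There 2 components, Dst and Itgb4, were higher by the adjusted p alone (50.7%), and 17 related genes were called higher (27.1%). Upper quartile scaling gave Dst 0.092 and Itga6 0.054, with 1 component, Itgb4, higher by the adjusted p alone (39.6%). Scaling to basal markers gave Dst 2.97, Itga6 3.59, Plec 3.47, Col17a1 0.12, Lama3 0.32, Lamb3 0.61 and Cd151 2.67, with 5 components called higher (97.0% of all genes), 6 higher by the adjusted p alone (97.7%) and 0 lower by either rule, and 44 related genes called higher and 0 lower. These 4 scalings moved the median of all genes to 0.65, 0.45, 0.15 and 3.30.

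With 3 mice per group, limits are set by the spread between mice. Changes of Itga6, Dst and Itgb4 smaller than their intervals were not detectable, and Col17a1, Lama3 and Lamb3 rest on few reads in OEx mice.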
